A study of Mus musculus with 8 samples.

Results

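Glycolysis, the pathway that splits glucose into pyruvate, and the transcriptional response to low oxygen were followed in mouse macrophages through 34 named genes. The genes were chosen by symbol, with earlier results of these data known, and all 34 were found among the 54532 genes of the deposited table. They comprise 3 transporters of glucose and lactate, 11 enzymes from hexokinase to aldolase, 9 genes from triose phosphate isomerase to pyruvate and lactate, 3 genes of oxygen sensing and 8 further genes of the hypoxia response. The cells were bone marrow derived macrophages, phagocytes grown in culture from marrow precursors. They fall into 4 groups of 2 libraries each, namely spermine with 3 h of IFN-β, spermine at 0 h of IFN-β, PBS with 3 h of IFN-β and PBS at 0 h of IFN-β. Spermine is a polyamine, a small positively charged molecule that cells also make themselves. PBS is a salt buffer and served as the control, and IFN-β is a type I interferon. The sources used here do not state genotype, strain, age, doses or the length of spermine treatment. The sample labels give PBS as the control, although the design text of the series has DMSO, and they give macrophages, although the extraction protocol mentions blood. All libraries at 3 h received IFN-β, so the effect of IFN-β and that of 3 h in culture cannot be told apart. Whether the 2 libraries of a group came from separate animals or cultures is not stated, and p-values therefore rest on a library-to-library spread of possibly technical origin.

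As background, glycolysis takes up glucose through transporters, phosphorylates it in hexokinase, commits it in phosphofructokinase and yields pyruvate, which lactate dehydrogenase turns into lactate for export. Most of these genes, with others that act on mitochondria, lipid stores and collagen, carry binding sites for hypoxia-inducible factor (HIF). When oxygen is scarce, the prolyl hydroxylases encoded by the Egln genes stop marking the HIF-1α subunit for degradation. In macrophages the same genes are also known to respond to inflammatory stimuli at normal oxygen.

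Expression is given as FPKM, fragments per kilobase of gene divided by a factor for each library. Changes are differences of log2(FPKM + 1) between group means, with their SE, tested with limma over 11421 genes and called at an adjusted p under 0.05. On this scale the change of weakly expressed genes is understated, most at around 1 FPKM and less, but also at several FPKM, as for Slc16a1. The sizes of 2 changes of such a gene, Egln3 among them, are therefore not to be ranked where its levels differ. Reads rebuilt from the table came to between 15723437 and 17744844 per library. The factor did not follow these totals. For a gene of 1 kilobase, 1 FPKM stood for 14.0 reads in PBS 3 h replicate 1 and 22.9 in PBS 0 h replicate 1. Summed FPKM ran from 248254 in PBS 0 h replicate 1 to 404833 in spermine 3 h replicate 1. The deposited scale keeps the median gene near no change. Rescaling to TPM, which fixes the sum of all genes, shifted the median gene by -0.34 in the comparison of spermine with PBS at 0 h and by -0.20 in that at 3 h. For IFN-β the shift was -0.46 in PBS, -0.33 with spermine and 0.14 in the difference of the 2 responses. All 7 macrophage markers examined, such as Csf1r and Adgre1, were expressed, with a summed level between 10453 and 12933 FPKM. Lyz2 made up most of this sum, at 7799 to 9901 FPKM. Fcgr1 and Mertk moved with the groups. Fcgr1 had 32.9 to 38.4 FPKM in spermine at 0 h and 50.9 to 53.7 FPKM in PBS at 0 h. At 3 h Fcgr1 had 492 to 493 FPKM with spermine and 611 to 638 FPKM with PBS. Mertk had 5.62 to 6.46 FPKM in spermine at 0 h and 13.5 to 15.2 FPKM in PBS at 0 h. At 3 h Mertk had 19.8 to 34.2 FPKM. What these shifts contributed to the results was not tested. The neutrophil list summed to between 5.92 and 9.95 FPKM with Ly6g at 0 in every library, and the lists for B and plasma cells, T and NK cells, mast cells and basophils, fibroblasts and stroma, and erythroid cells summed to at most 0.734 FPKM. The dendritic cell list moved with the groups, between 5.72 and 6.62 FPKM in spermine at 3 h, 1.24 and 1.25 FPKM in spermine at 0 h, 3.28 and 4.65 FPKM in PBS at 3 h, and 0.411 and 0.414 FPKM in PBS at 0 h. Xcr1, at 0.09 to 6.41 FPKM, made up most of it outside PBS at 0 h, while Flt3 and Zbtb46 stayed at or below 0.04 FPKM. The part of this list in the results was not tested. In bulk libraries, fewer cells of a type and less RNA per cell cannot be told apart.

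The DNA element that HIF binds has the core ACGTG or GCGTG, and the promoters of the members were searched for it on both strands. RefSeq promoters (GRCm38.p6, 250 bases before to 50 bases after a gene's start) were at hand for 32 of the 34 genes, in 46 windows. Windows of the same gene can overlap, as in Hilpda, and each is counted. A core was present in 38 of the 46 windows (82.6%), against 62.9% of 10273 windows of genes tested and 43.8% of all 32851 windows. The letters ACGTG alone were in 56.5% of the members' windows, against 26.4% of those of genes tested, and GCGTG in 58.7% against 51.0%. Base composition differed as well, and its part in these shares was not tested. The median GC content was 62.8% in the members' windows, 60.7% in those of genes tested and 52.7% in all windows. Of the 32 genes 29 had a core in at least 1 window, and Eno2, Gpi1 and Tpi1 had none in these windows. A match of 5 letters is a description of the sequence, not a bound site.

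Stretches around the cores are shown for 5 genes with large changes below, with the core in capitals (CACGC and CACGT are the cores read on the other strand). Distances are to the RefSeq start of the window. In Hilpda the cores began 111, 43 and 8 bases before the start at 29272626. In Slc2a1 they began 61 and 36 bases before its start, and in Slc16a3 27 and 14 bases before the start at 120949067. In the deposited table Hilpda begins earlier, at 29272488, and so does Slc16a3, at 120948480. Their stretches thus lie within the tabled gene, as do those of Pfkfb3. Hilpda has a second RefSeq window, 29272238 to 29272537, which overlaps the first. Its 1 core is the one shown in the stretch 29272507 to 29272527.
Hilpda, chr6:29272507-29272527, plus strand: cgcgagccGCGTGctttccgt
Hilpda, chr6:29272575-29272595, plus strand: gccagcggACGTGccccaggg
Hilpda, chr6:29272610-29272625, plus strand: ttcggtacGCGTGcgc
Slc2a1, chr4:119108676-119108696, plus strand: cacagaacCACGCctctcaga
Slc2a1, chr4:119108701-119108721, plus strand: cgccccggACGTGctccccag
Slc16a3, chr11:120949032-120949052, plus strand: cagcggtgACGTGcgcggggg
Slc16a3, chr11:120949045-120949065, plus strand: cgcgggggACGTGccgcgcga
Adm, chr7:110627559-110627579, plus strand: gaagcaagCACGCtggagagg
Adm, chr7:110627595-110627615, plus strand: aatctgacCACGCccaccgtc
Pfkfb3, chr2:11502200-11502220, minus strand: ggaacagaGCGTGctgctctc
Pfkfb3, chr2:11502130-11502151, minus strand: cttctctcCACGTGaaaggggg
Pfkfb3, chr2:11553977-11553997, minus strand: gcgccgtgACGTGccaagctg
The Pfkfb3 windows belong to 2 separate starts, and the CACGTG in one of them holds the core on both strands. That window, 11502041 to 11502340, has 4 cores in all, of which only those wholly before the start are shown.

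The whole 250 bases before the start are shown for Pgk1, which rose with spermine at both times, and for Egln3, which fell over 3 h of IFN-β. Pgk1 has 2 cores and Egln3 has 1.
Pgk1, chrX:106186850-106187099, plus strand: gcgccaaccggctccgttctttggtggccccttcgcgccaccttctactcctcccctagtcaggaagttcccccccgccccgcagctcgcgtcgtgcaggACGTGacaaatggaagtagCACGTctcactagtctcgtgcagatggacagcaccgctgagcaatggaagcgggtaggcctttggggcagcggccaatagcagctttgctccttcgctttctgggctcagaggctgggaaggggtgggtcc
Egln3, chr12:54203875-54204124, minus strand: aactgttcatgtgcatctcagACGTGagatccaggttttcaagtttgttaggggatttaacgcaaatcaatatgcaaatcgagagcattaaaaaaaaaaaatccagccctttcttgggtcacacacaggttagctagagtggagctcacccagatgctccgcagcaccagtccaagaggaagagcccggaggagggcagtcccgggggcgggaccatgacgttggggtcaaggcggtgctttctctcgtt
Other motifs were searched in the same windows. A core of the interferon-stimulated response element, GAAA followed by 2 free bases and another GAAA, was in none of the 46 windows, against 3.47% of windows of genes tested. TGACNNNGC, a core of the antioxidant response element, was in 10.9% against 14.9%.

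Levels per length spanned a wide range. Pkm, the pyruvate kinase that makes pyruvate and ATP, and Aldoa, the aldolase that splits the hexose, had the highest levels, with 345 to 698 FPKM for Pkm and 324 to 696 FPKM for Aldoa over the 8 libraries. Ldha, Pgk1, Pgam1, Eno1 and Tpi1, all lower steps of the pathway, lay between 84.8 and 357 FPKM. Adm was the lowest, between 0.0306 and 1.66 FPKM and 1 to 49 reads per library. All 34 genes reached 1 FPKM in at least 2 libraries, the filter for testing. Adm did so only through spermine libraries and Ankrd37 only through 0 h libraries. Eno2 did so in the 0 h libraries and, at 3 h, only in spermine 3 h replicate 1 (1.02 FPKM). P4ha2 did so in the spermine libraries and, with PBS, only in PBS 0 h replicate 2 (1.09 FPKM). These genes thus entered the tests through the groups where they were high. The calls of Adm and P4ha2 for spermine and of Ankrd37 and Eno2 for IFN-β, which the counts below include, are therefore not independent of the filter. A second row named Aldoa, which stayed at or below 0.683 FPKM, was left out. Summed over the 34 genes, the level was 3472 ± 55.9 FPKM in spermine at 3 h, 3357 ± 190 FPKM in spermine at 0 h, 2046 ± 84.9 FPKM in PBS at 3 h and 1956 ± 108 FPKM in PBS at 0 h (SD, n = 2 each). As a share of all FPKM this was 0.862%, 1.05%, 0.587% and 0.779% in the same order. Both spermine groups were thus above both PBS groups in sum and in share.

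**Figure D1:**
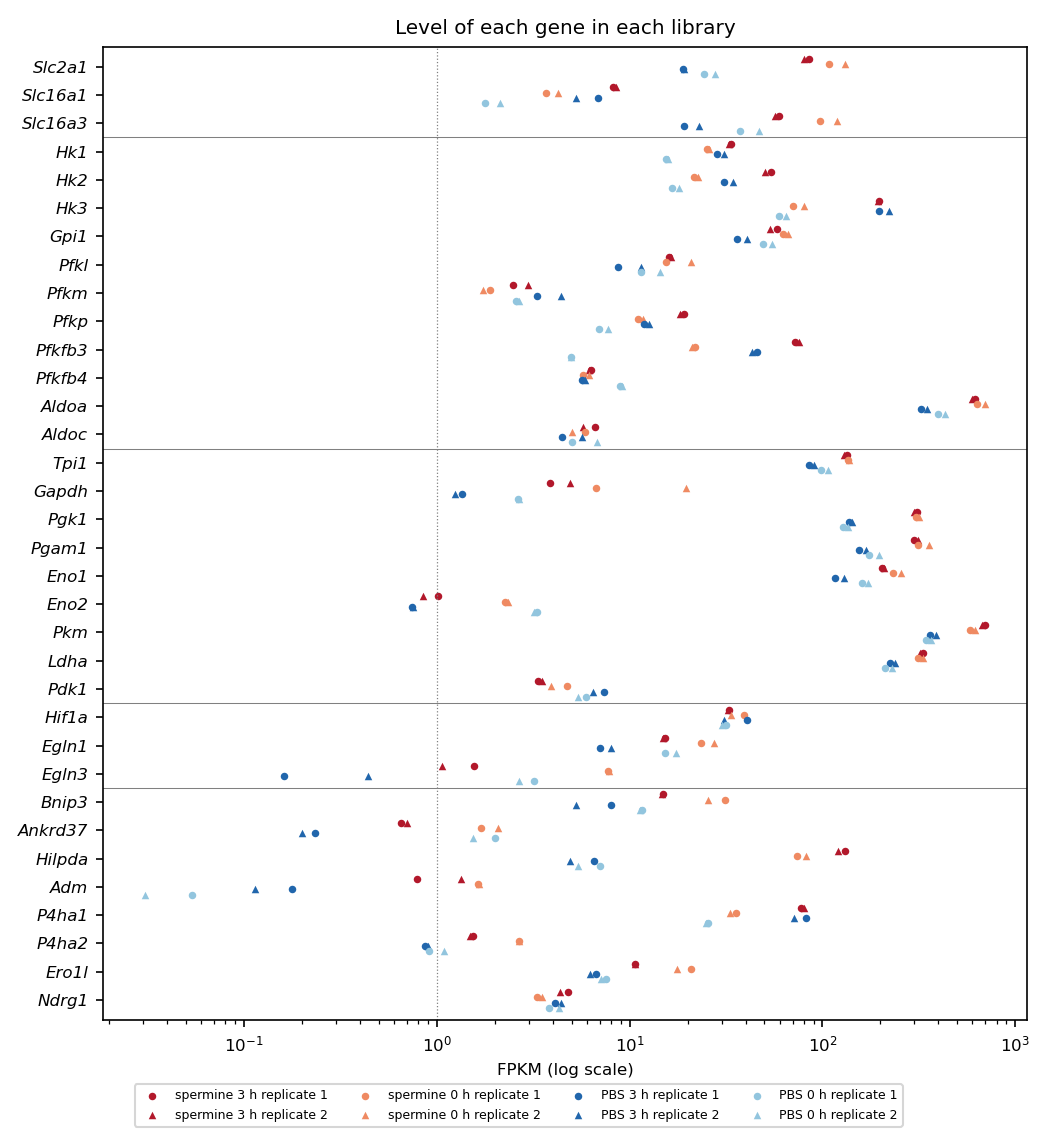
FPKM of the 34 genes (rows, grouped by role) on a log axis, 1 point per library, with colours for the 4 groups, circles for replicate 1, triangles for replicate 2 and a dotted line at 1 FPKM. Levels run from 0.0306 FPKM for Adm to 698 FPKM for Pkm, and the red and orange spermine points of Slc2a1 and Hilpda lie apart from the blue PBS points.

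Gapdh, a glycolytic enzyme often used as a reference gene, was low and uneven, with 3.85 and 4.91 FPKM in spermine at 3 h, 6.73 and 19.5 FPKM in spermine at 0 h, 1.35 and 1.24 FPKM in PBS at 3 h, and 2.63 and 2.68 FPKM in PBS at 0 h. It was below its neighbours Tpi1 and Pgk1 in every library. Of the 100-base windows of its annotated transcripts (GENCODE M21), 20.9% also occur in other annotated genes, 86 of them in all. The treatment of reads matching several genes is not stated in those sources, and its part in the level was not tested. The same share was 51.7% for Pgk1, 33.9% for Pgam1, 24.6% for Bnip3, 20.4% for Eno1 and 12.3% for Pkm, and at most 10.8% for the other members. Values of these 6 genes are uncertain in that respect. Strand is not stated, and Ankrd37, Pfkm, Pfkp, Tpi1, Gapdh and Slc2a1 overlap genes on the other strand, so reads of the partners cannot be told apart. On the same strand, Slc2a1 overlaps Mir1957a (0 to 27.4 FPKM) and Pkm overlaps AC160637.1 (11.4 to 60.7 FPKM). AC160637.1 was higher in each spermine library than in each PBS library. What these overlaps contributed was not tested.

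Before IFN-β, macrophages with spermine expressed more of the glucose importer, the lactate exporters, most enzymes of glycolysis and most hypoxia response genes than macrophages with PBS. On the log2(FPKM + 1) scale Hilpda rose most (3.46, or 12.6-fold in mean FPKM), followed by Slc2a1 (2.15, 4.57-fold) and Pfkfb3 (1.91, 4.31-fold). Of the 34 genes 24 were higher and 3 lower at an adjusted p under 0.05, and 7 did not pass. Over all 11421 genes 41.2% were called, 22.0% higher and 19.2% lower. The median log2 change was 0.59 over the members and 0.01 over all genes tested. After TPM rescaling the counts were 18 higher and 5 lower, and after quantile normalization 16 higher and 2 lower.

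All 3 transporters rose with spermine at 0 h, where 22.0% of all genes were called higher. Slc2a1, which encodes the glucose importer GLUT1 (chr4:119108711-119137983, plus strand, GRCm38), had 108 and 130 FPKM in spermine at 0 h against 24.4 and 27.9 FPKM in PBS at 0 h. Both spermine libraries lay far above both PBS libraries, and the change was 2.15 ± 0.11 SE (limma, adjusted p = 2.48e-05). Slc16a3, the lactate exporter MCT4, had 97.6 and 119 FPKM against 37.6 and 47.1 FPKM in PBS, again with no overlap (log2 change 1.34 ± 0.15 SE, limma, adjusted p = 0.000584). Slc16a1, the lactate and pyruvate carrier MCT1, was low in both groups, at 3.70 and 4.27 FPKM with spermine and 1.79 and 2.13 FPKM with PBS, and rose by 0.75 on the log2 scale.

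Of the 11 genes from hexokinase to aldolase, 6 rose and 1 fell with spermine at 0 h, where 22.0% of all genes were called higher and 19.2% lower. Pfkfb3 makes the sugar bisphosphate that activates phosphofructokinase (chr2:11471433-11554077, minus strand). It had 21.9 and 21.1 FPKM with spermine against 5.00 and 4.97 FPKM with PBS, a separation far wider than the spread of either pair (log2 change 1.91 ± 0.06 SE, limma, adjusted p = 6.82e-06). Pfkfb4, a relative in the same enzyme family, went the other way, with 5.75 and 6.19 FPKM under spermine and 8.95 and 9.16 FPKM under PBS (log2 change -0.53, limma, adjusted p = 0.00129). Among the hexokinases, which trap glucose in the cell, Hk1 rose by 0.67 and Hk2 by 0.34, while Hk3, the most abundant of them, did not pass (0.27, limma, adjusted p = 0.0545). Pfkp, the platelet-type phosphofructokinase, rose by 0.58, Aldoa by 0.68 and Gpi1, the glucose phosphate isomerase, by 0.31. Gpi1 turned to -0.029 and did not pass after TPM rescaling. Pfkl and Pfkm, the liver and muscle forms of phosphofructokinase, and the aldolase Aldoc did not pass, with changes of 0.46, -0.36 and -0.08. Single libraries decided some of these calls: without spermine 0 h replicate 2 or PBS 0 h replicate 1 the change of Hk2 was 0.31 or 0.29 and did not pass (limma, adjusted p = 0.068 and 0.0921), and that of Gpi1 was 0.27 or 0.24, with 0.35 without spermine 0 h replicate 1 (limma, adjusted p = 0.119, 0.163 and 0.0659). Conversely, without spermine 0 h replicate 1 Hk3 (0.36) and Pfkl (0.66) passed, and without either PBS 3 h library Hk3 (0.27) and Pfkm (-0.36) passed.

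All 9 genes of lower glycolysis and pyruvate were called, 7 higher and 2 lower, where 41.2% of all genes were called, 22.0% higher and 19.2% lower. Pgk1, which forms the first ATP of the pathway (chrX:106187100-106203699, plus strand), had 307 and 317 FPKM with spermine against 128 and 136 FPKM with PBS (log2 change 1.23 ± 0.06 SE, limma, adjusted p = 2.65e-05). The pairs were narrow and far apart. Pgam1, the phosphoglycerate mutase, rose by 0.86, Pkm by 0.75, Ldha by 0.55, the enolase Eno1 by 0.54 and Tpi1 by 0.41. Gapdh rose by 1.79 ± 0.39 SE (limma, adjusted p = 0.011), with a large gap between its own spermine libraries, and the change did not pass without PBS 0 h replicate 1 (1.78) or replicate 2 (1.79). Eno2, the neuronal enolase, fell slightly, to 2.27 and 2.35 FPKM with spermine, against 3.32 and 3.18 FPKM with PBS (log2 change -0.36, limma, adjusted p = 0.0188). Pdk1, the kinase that shuts pyruvate dehydrogenase and so keeps pyruvate from the mitochondria, fell to 4.74 and 3.93 FPKM, against 5.92 and 5.38 FPKM with PBS (log2 change -0.32, limma, adjusted p = 0.0451). Eno2 did not pass when either spermine 0 h library or either PBS 0 h library was left out (-0.39 to -0.34). Pdk1 did not pass without spermine 0 h replicate 2 (-0.21), PBS 0 h replicate 1 (-0.26) or replicate 2 (-0.38), or either spermine 3 h library (-0.32).

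Both hydroxylases that sense oxygen rose with spermine at 0 h, while Hif1a did not pass. Hif1a, the oxygen-regulated subunit of HIF, had 39.2 and 33.4 FPKM with spermine and 31.5 and 30.0 FPKM with PBS at 0 h, a change of 0.23 ± 0.14 SE (limma, adjusted p = 0.22). Egln3, a hydroxylase that marks HIF-1α and is itself a HIF target (chr12:54178981-54203860, minus strand), had 7.71 and 7.83 FPKM with spermine against 3.20 and 2.67 FPKM with PBS (log2 change 1.16 ± 0.15 SE, limma, adjusted p = 0.00125). The groups did not overlap. Egln1, the main oxygen sensor of the family, rose by 0.60.

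Of the other hypoxia response genes 6 of 8 rose, Adm included, where 22.0% of all genes were called higher. Hilpda encodes a small protein that inhibits the lipase of lipid droplets (chr6:29272488-29275446, plus strand). It had 74.1 and 82.1 FPKM with spermine against 7.05 and 5.40 FPKM with PBS (log2 change 3.46 ± 0.15 SE, limma, adjusted p = 1.77e-05). On this scale it was the largest change among the 34 genes in this comparison. Adm, the precursor of the vasodilator peptide adrenomedullin, had 1.64 and 1.66 FPKM with spermine, from 44 and 49 reads, against 0.0539 and 0.0306 FPKM with PBS, from 2 and 1 reads (log2 change 1.35 ± 0.15 SE). It passed the filter only through spermine libraries, so no p-value is given. Adm was thus near the limit of detection without spermine, and no ratio is given. Ero1l, an oxidase that forms disulfide bonds in the endoplasmic reticulum, had 20.9 and 17.6 FPKM with spermine and 7.53 and 7.14 FPKM with PBS (log2 change 1.28 ± 0.09 SE, limma, adjusted p = 0.000106). Bnip3, a receptor for the removal of mitochondria, rose by 1.23, and P4ha2 and P4ha1, which encode catalytic subunits of the collagen prolyl hydroxylase, rose by 0.88 and 0.45. Ankrd37 (0.05) and Ndrg1 (-0.20) did not pass. Of the genes called higher in this comparison, Hk2, Tpi1, Eno1, Egln1 and P4ha1 did not pass after TPM rescaling (0.01 to 0.28), and Hk2, Gpi1, Aldoa, Tpi1, Eno1, Pkm, Ldha and P4ha1 did not pass after quantile normalization (0.01 to 0.23). TPM rescaling added Pfkm (-0.77) and Ndrg1 (-0.56) to the genes called lower.

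**Figure D2:**
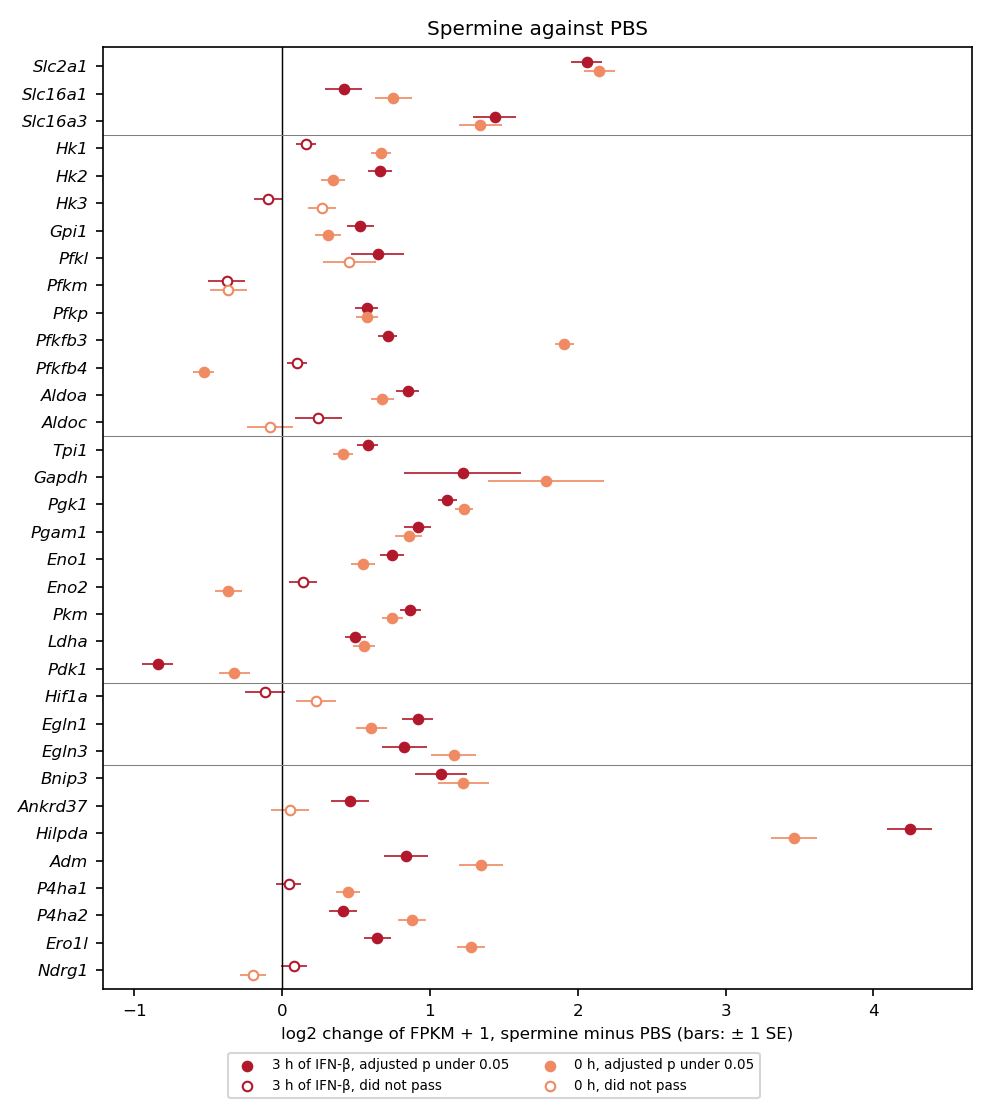
Change with spermine against PBS on the log2(FPKM + 1) scale for the 34 genes, red at 3 h of IFN-β and orange at 0 h, with bars of 1 SE and filled points for an adjusted p under 0.05. Hilpda lies farthest right at 4.25 and 3.46, Slc2a1 at 2.06 and 2.15, and the points of Pfkfb3 lie apart at 0.72 and 1.91.

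After 3 h of IFN-β, spermine again went with higher levels of most members, and Hilpda was 22.0-fold higher than with PBS. Of the 34 genes 24 were higher and 1 was lower, with 9 that did not pass, where 40.5% of all genes were called, 19.9% higher and 20.6% lower. The median log2 change was 0.61 over the members, against -0.00 over all genes tested. TPM rescaling gave 22 higher and 3 lower, where 11.7% of all genes were called higher and 32.2% lower. Quantile normalization gave 22 higher and 2 lower, where 17.0% of all genes were called higher and 20.1% lower. After TPM rescaling Slc16a1 (0.26) and Pfkl (0.48) did not pass, and Hk3 (-0.30) and Pfkm (-0.62) were called lower.

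Hilpda had 131 and 120 FPKM with spermine against 6.56 and 4.88 FPKM with PBS at 3 h (log2 change 4.25 ± 0.15 SE, limma, adjusted p = 8.03e-06). Slc2a1 had 84.8 and 79.9 FPKM with spermine and 18.9 and 19.1 FPKM with PBS (log2 change 2.06 ± 0.11 SE, limma, adjusted p = 2.87e-05). For both, the spermine libraries lay far above the PBS libraries. Slc16a3 rose by 1.44, with 59.7 and 57.1 FPKM under spermine and 19.1 and 22.9 FPKM under PBS, whereas Slc16a1 rose by 0.42 and did not pass when either spermine 3 h library (0.39 and 0.44), PBS 3 h replicate 2 (0.26) or either PBS 0 h library (0.42) was left out.

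In the upper pathway at 3 h, Hk2 rose by 0.66, Gpi1 by 0.53, Pfkp by 0.57, Pfkl by 0.65 and Aldoa by 0.85. Pfkfb3 had 71.9 and 75.6 FPKM with spermine against 45.6 and 43.3 FPKM with PBS (log2 change 0.72 ± 0.06 SE, limma, adjusted p = 0.000275). Hk1 (0.16), Hk3 (-0.10), Pfkm (-0.37), Pfkfb4 (0.10) and Aldoc (0.25) did not pass. Pfkl did not pass without spermine 3 h replicate 1 (0.66), spermine 3 h replicate 2 (0.63) or PBS 3 h replicate 1 (0.47), while Pfkm passed without the last of these (-0.53).

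Pgk1 at 3 h had 308 and 300 FPKM with spermine against 137 and 142 FPKM with PBS (log2 change 1.12 ± 0.06 SE, limma, adjusted p = 3.99e-05). Pgam1 rose by 0.92, Pkm by 0.87, Eno1 by 0.74, Tpi1 by 0.58 and Ldha by 0.50, and Eno2 did not pass (0.14). Gapdh rose by 1.22 ± 0.39 SE (limma, adjusted p = 0.0453), a call lost when any spermine 3 h, PBS 3 h or PBS 0 h library was left out (1.08 to 1.36). Pdk1 was the member that fell, with 3.34 and 3.49 FPKM under spermine against 7.35 and 6.49 FPKM under PBS (log2 change -0.84 ± 0.10 SE, limma, adjusted p = 0.00104). Its spermine libraries were at about 50% of the PBS libraries, with a ratio of means of 0.494.

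Egln1 rose by 0.92 and Egln3 by 0.83 with spermine at 3 h, while Hif1a did not pass (-0.11). Egln3 was nevertheless low in both groups at this time, with 1.56 and 1.06 FPKM under spermine and 0.161 and 0.442 FPKM under PBS. Bnip3 rose by 1.07, Adm by 0.84, Ero1l by 0.65, Ankrd37 by 0.46 and P4ha2 by 0.41. P4ha1, which had 77.8 and 80.2 FPKM with spermine and 82.2 and 71.2 FPKM with PBS, did not pass (0.04 ± 0.08 SE), and neither did Ndrg1 (0.08). The groups of P4ha1 overlapped. The call of Ankrd37, which had 5 to 16 reads per library here, was lost when any of these 4 libraries was left out (0.44 to 0.48), and that of P4ha2 without spermine 3 h replicate 1 (0.39).

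**Figure D3:**
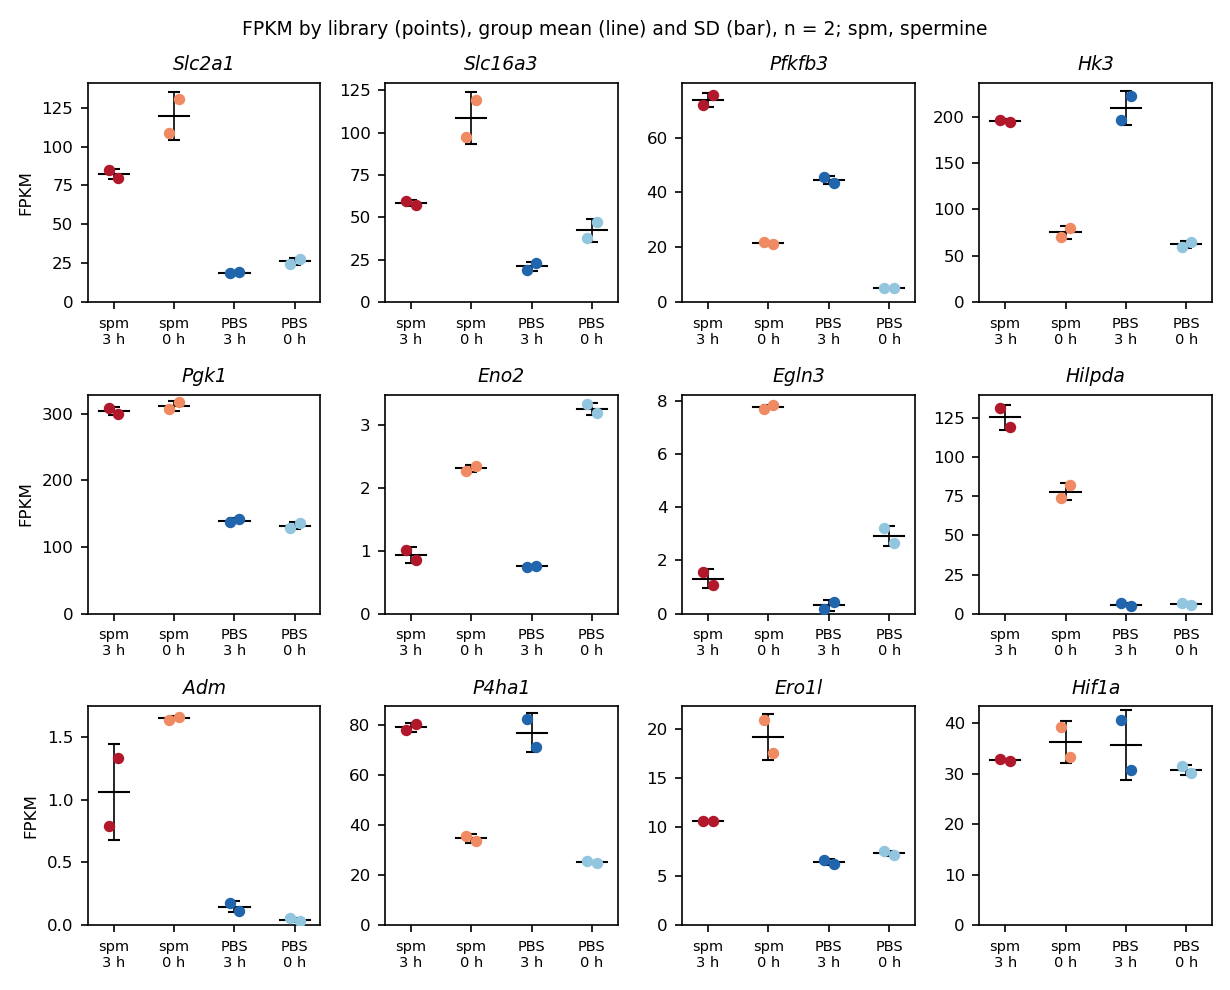
FPKM of 12 members in each library (points), with the group mean (line) and SD (bar, n = 2), for spermine at 3 h, spermine at 0 h, PBS at 3 h and PBS at 0 h. Hilpda and Slc2a1 are high in both spermine groups, Hk3 and P4ha1 in both 3 h groups, and Egln3 and Eno2 in the 0 h groups.

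With 3 h of IFN-β in PBS, the genes went in both directions. The regulator Pfkfb3, the hexokinases, the carrier Slc16a1 and P4ha1 rose, and the oxygen sensors, Slc16a3, Bnip3 and several glycolytic enzymes fell. Of the 34 genes 8 rose and 12 fell, where 49.6% of all genes were called, 24.6% higher and 25.0% lower. The median log2 change was -0.13 over the members and -0.02 over all genes tested. The balance depends on the scaling. After TPM rescaling 7 were higher and 23 lower, where 14.8% of all genes were called higher and 55.3% lower. After quantile normalization 8 were higher and 17 lower, where 20.4% of all genes were called higher and 35.4% lower.

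Pfkfb3 rose 8.92-fold, to 45.6 and 43.3 FPKM in PBS at 3 h, against 5.00 and 4.97 FPKM in PBS at 0 h (log2 change 2.93 ± 0.06 SE, limma, adjusted p = 9.83e-08). Hk3 had 196 and 223 FPKM at 3 h against 59.5 and 64.7 FPKM at 0 h (log2 change 1.74 ± 0.09 SE, limma, adjusted p = 7.67e-06). In both genes the 3 h libraries stood clear of the 0 h libraries. Hk2 rose by 0.89, Hk1 by 0.88, Pfkp by 0.67 and Pfkm by 0.41, so that all 3 hexokinases rose, which also held after TPM rescaling and quantile normalization. Pfkfb4 fell by 0.58 on the log2 scale, Gpi1 by 0.43 and Aldoa by 0.30, and Pfkl (-0.33) and Aldoc (-0.18) did not pass. Pfkm did not pass without PBS 3 h replicate 2 (0.25), PBS 0 h replicate 1 (0.39) or PBS 0 h replicate 2 (0.43), nor after TPM rescaling (0.06). Gpi1 did not pass without PBS 0 h replicate 2 (-0.35), nor Aldoa without that library or PBS 3 h replicate 1 (-0.25 in each case).

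The transporters split. Slc16a1 had 6.83 and 5.29 FPKM at 3 h against 1.79 and 2.13 FPKM at 0 h (log2 change 1.25 ± 0.13 SE, limma, adjusted p = 0.00019). Slc16a3 had 19.1 and 22.9 FPKM at 3 h against 37.6 and 47.1 FPKM at 0 h (log2 change -0.97 ± 0.15 SE, limma, adjusted p = 0.00135). One lactate carrier was higher and the other lower, with no overlap in either. Slc2a1 fell by 0.44, but did not pass with PBS 0 h replicate 2 left out (-0.35).

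In lower glycolysis, Eno2 fell to 0.746 and 0.750 FPKM at 3 h, against 3.32 and 3.18 FPKM at 0 h (log2 change -1.28 ± 0.09 SE). Without the 0 h libraries Eno2 would not have passed the filter, so no p-value is given. Eno1 fell by 0.44 and Tpi1 by 0.22, and the call of Tpi1 was lost when any 1 of 6 libraries was left out (-0.22 without either spermine 3 h or either spermine 0 h library, -0.17 without PBS 3 h replicate 1 and -0.16 without PBS 0 h replicate 2). Pgk1 (0.08), Pgam1 (-0.19), Pkm (0.08) and Ldha (0.07) did not pass on the deposited scale, and each was called lower after TPM rescaling (-0.67 to -0.39) and after quantile normalization (-0.96 to -0.62). Pdk1 (0.25) did not pass. Gapdh (-0.67) did not pass either, but did without spermine 0 h replicate 1 or 2 (-0.67 in each case), the pair that differed from each other.

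Among the sensors, Egln3 fell to 0.161 and 0.442 FPKM at 3 h, from 6 and 19 reads, against 3.20 and 2.67 FPKM at 0 h (log2 change -1.60 ± 0.15 SE, limma, adjusted p = 0.000136). Egln1 had 7.04 and 7.97 FPKM at 3 h against 15.3 and 17.5 FPKM at 0 h (log2 change -1.03 ± 0.11 SE, limma, adjusted p = 0.000201). Both hydroxylases were lower in each 3 h library than in each 0 h library. Hif1a did not pass (0.20), with 40.7 and 30.8 FPKM at 3 h, and passed without PBS 3 h replicate 2 (0.39).

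Of the other hypoxia response genes, P4ha1 rose to 82.2 and 71.2 FPKM at 3 h, against 25.4 and 24.8 FPKM at 0 h (log2 change 1.57 ± 0.08 SE, limma, adjusted p = 7.11e-06). Ankrd37 fell to 0.233 and 0.201 FPKM, from 5 reads in each library, against 2.01 and 1.55 FPKM at 0 h (log2 change -1.19 ± 0.13 SE). It passed the filter only through 0 h libraries, so no p-value is given. Bnip3 fell by 0.74, but did not pass with PBS 0 h replicate 1 left out (-0.72). Hilpda (-0.11), Adm (0.14), P4ha2 (-0.08), Ero1l (-0.16) and Ndrg1 (0.05) did not pass, and Ndrg1 was called lower after TPM rescaling (-0.38). The libraries of Hilpda overlapped, with 6.56 and 4.88 FPKM in PBS at 3 h and 7.05 and 5.40 FPKM in PBS at 0 h.

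**Figure D4:**
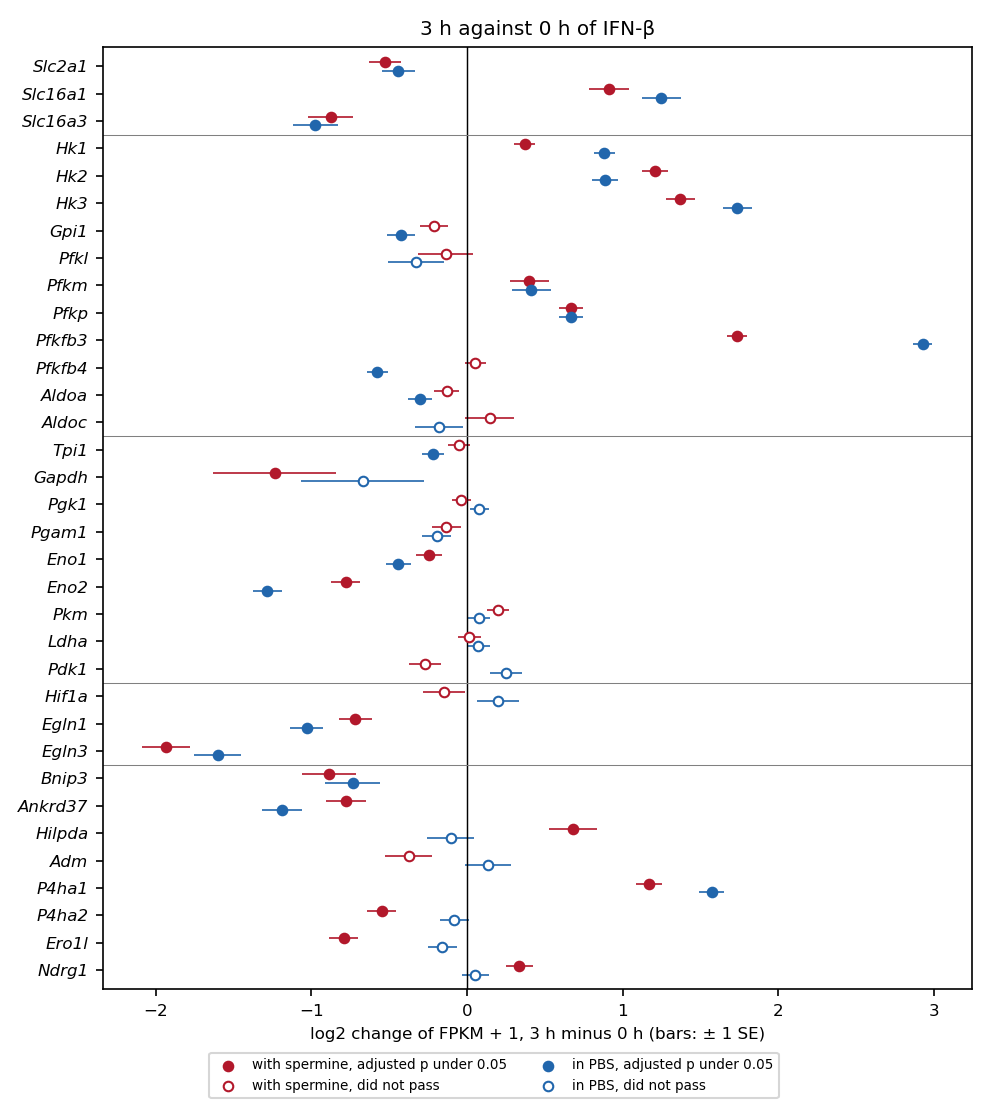
Change over 3 h of IFN-β against 0 h on the log2(FPKM + 1) scale for the 34 genes, red with spermine and blue in PBS, with bars of 1 SE and filled points for an adjusted p under 0.05. Pfkfb3 lies farthest right at 1.73 with spermine and 2.93 in PBS, and Egln3 farthest left at -1.93 and -1.60.

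With spermine, 10 members rose and 11 fell over 3 h of IFN-β, where 41.7% of all genes were called, 19.7% higher and 22.1% lower. The median log2 change was -0.13 over the members and -0.01 over all genes tested. TPM rescaling gave 6 higher and 21 lower, where 12.0% of all genes were called higher and 44.0% lower. Quantile normalization gave 8 higher and 19 lower, where 15.1% of all genes were called higher and 29.9% lower. This comparison and the one in PBS share no library.

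Pfkfb3 had 71.9 and 75.6 FPKM in spermine at 3 h against 21.9 and 21.1 FPKM in spermine at 0 h (log2 change 1.73 ± 0.06 SE, limma, adjusted p = 1.66e-06). Hk3 had 197 and 194 FPKM at 3 h against 70.4 and 80.1 FPKM at 0 h, and Hk2 had 54.3 and 50.7 FPKM against 21.6 and 22.8 FPKM. These rose by 1.37 and 1.21, Slc16a1 by 0.91, Pfkp by 0.67, Pfkm by 0.40 and Hk1 by 0.37. Pfkm lost its call when any spermine library or either PBS 0 h library was left out (0.30 to 0.50), and Hk1 after TPM rescaling (0.05) and quantile normalization (0.09). Slc16a3 fell by 0.88 and Slc2a1 by 0.53, the second of these not passing without spermine 3 h replicate 2 (-0.48).

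Eno2 fell by 0.78 on the log2 scale, Eno1 by 0.24 and Gapdh by 1.23. Gapdh did not pass when any 1 of 6 libraries, those of spermine 3 h, PBS 3 h and PBS 0 h, was left out (-1.38 to -1.09), and Eno1 when any spermine or PBS 0 h library was (-0.31 to -0.17). Gpi1 (-0.21), Pfkl (-0.14), Pfkfb4 (0.05), Aldoa (-0.13), Aldoc (0.15), Tpi1 (-0.05), Pgk1 (-0.04), Pgam1 (-0.13), Pkm (0.20), Ldha (0.02), Pdk1 (-0.27) and Hif1a (-0.14) did not pass. Pdk1 passed without spermine 0 h replicate 2 (-0.38). After TPM rescaling and quantile normalization, Gpi1, Aldoa, Tpi1, Pgk1, Pgam1 and Ldha were called lower (-0.72 to -0.32). Pkm was called lower after quantile normalization (-0.26, adjusted p = 0.0357) and higher by limma voom on rebuilt reads (0.20, adjusted p = 0.0347), so its direction depended on the scaling. Pfkfb4 was called lower after TPM rescaling (-0.26).

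Egln3 fell to 1.56 and 1.06 FPKM in spermine at 3 h, against 7.71 and 7.83 FPKM in spermine at 0 h (log2 change -1.93 ± 0.15 SE, limma, adjusted p = 8.48e-05). Egln1 fell by 0.72. P4ha1 rose by 1.17, while P4ha2 fell by 0.55, with 1.54 and 1.48 FPKM at 3 h and 2.68 and 2.66 FPKM at 0 h. Bnip3 fell by 0.89, Ero1l by 0.79 and Ankrd37 by 0.78. Hilpda rose to 131 and 120 FPKM at 3 h, against 74.1 and 82.1 FPKM at 0 h (log2 change 0.68 ± 0.15 SE, limma, adjusted p = 0.0118), and Ndrg1 rose by 0.34. Neither Hilpda nor Ndrg1 passed without spermine 3 h replicate 1 (0.61 and 0.28), without spermine 0 h replicate 1 (0.61 and 0.30) or after TPM rescaling (0.35 and 0.08), and Hilpda did not after quantile normalization (0.19). Adm (-0.37) did not pass, but did without spermine 3 h replicate 2 (-0.56).

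The difference between the IFN-β responses, spermine minus PBS, was tested directly and called in 5 of the 34 genes, 2 higher and 3 lower, where 13.6% of all genes were called, 5.82% higher and 7.75% lower. The median difference was -0.01 over the members and -0.02 over all genes. TPM rescaling gave 3 higher and 2 lower, where 8.80% of all genes were called higher and 4.31% lower. Quantile normalization gave 5 higher and 3 lower, where 7.88% of all genes were called higher and 8.02% lower. The response of Pfkfb3 was 1.73 with spermine and 2.93 in PBS, a difference of -1.19 ± 0.09 SE (limma, adjusted p = 0.00164), although its level at 3 h was higher with spermine. Hk1 rose by 0.37 with spermine and by 0.88 in PBS, a difference of -0.51 (limma, adjusted p = 0.0177). For Ero1l the difference was -0.63 (limma, adjusted p = 0.0246), since it fell by 0.79 with spermine and changed by -0.16 in PBS. Pfkfb4 had the opposite sign, 0.63 (limma, adjusted p = 0.0103), and so did Eno2, 0.50 (limma, adjusted p = 0.0481). For Hilpda the difference was 0.78 ± 0.22 SE and missed the threshold (limma, adjusted p = 0.0593), but passed without PBS 3 h replicate 1 (0.97). The call for Pfkfb3 held in every alternative fit listed below. Of the others, Hk1 was lost without either spermine 3 h library (-0.49 and -0.53) or either PBS 0 h library (-0.49 and -0.53), and Pfkfb4 without spermine 3 h replicate 1 or PBS 0 h replicate 2 (0.61 in each case). Eno2 was lost without any 1 of the 8 libraries (0.44 to 0.57), and Ero1l without any library except spermine 0 h replicate 2 and PBS 3 h replicate 2 (-0.67 to -0.51). Conversely, Gapdh (-1.27) passed without spermine 0 h replicate 1, Pdk1 (-0.63) without spermine 0 h replicate 2 and P4ha1 (-0.50) without PBS 3 h replicate 2.

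Within enzyme families the leading form could change with the group. Pfkfb3 made up 92.2% ± 0.382 of the summed FPKM of Pfkfb3 and Pfkfb4 in spermine at 3 h, 78.2% ± 1.36 in spermine at 0 h, 88.5% ± 0.629 in PBS at 3 h and 35.5% ± 0.448 in PBS at 0 h (SD, n = 2 each). PBS at 0 h was the group in which Pfkfb4 was the larger part. Hk3 was the largest part of the hexokinases in every library, at 69.5% ± 0.623 in spermine at 3 h, 61.2% ± 1.43 in spermine at 0 h, 77.0% ± 0.349 in PBS at 3 h and 65.4% ± 0.499 in PBS at 0 h. Slc16a1 was the smaller part of the lactate carriers throughout, with 12.5% ± 0.676 in spermine at 3 h, 3.55% ± 0.139 in spermine at 0 h, 22.5% ± 5.37 in PBS at 3 h and 4.43% ± 0.147 in PBS at 0 h. Its share was thus higher in each 3 h library than in each 0 h library. These shares do not depend on the scaling between libraries.

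**Figure D5:**
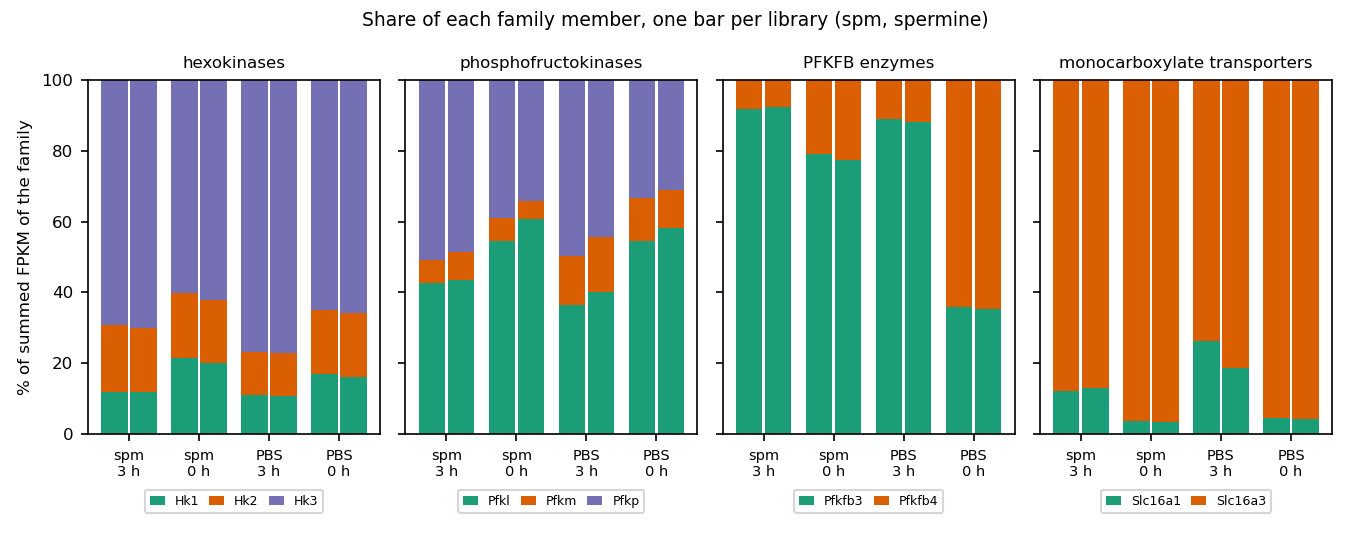
Share of each gene in the summed FPKM of its family, 1 bar per library, for hexokinases, phosphofructokinases, PFKFB enzymes and monocarboxylate transporters. Pfkfb3 takes 77.3% to 92.5% of its bar in all libraries except those of PBS at 0 h, where it takes 35.2% and 35.8%.

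Genes around the pathway were counted from 5 further lists, chosen like the members with earlier results of these data known. Gbe1 counts both among the other HIF targets and among the other genes of glycolysis, gluconeogenesis and glycogen. The counts are to be read against the 22.0% of all genes called higher and 19.2% called lower with spermine at 0 h. In that comparison 14 of 22 tested other HIF targets rose and 1 fell (median 0.60). The stress gene Ier3 rose by 2.91, with 187 FPKM in spermine at 0 h against 23.9 FPKM in PBS at 0 h. Ddit4, an inhibitor of the growth kinase mTORC1, rose by 2.45, while Zfp395 fell by 2.16. In the pentose phosphate pathway, which branches off after hexokinase and makes NADPH, 4 of 8 rose and 1 fell (median 0.24). Its leading members were Pgd (1.26), Taldo1 (0.92) and Tkt (0.68), which encode phosphogluconate dehydrogenase, transaldolase and transketolase. Of 12 genes for the entry of pyruvate into mitochondria 2 rose and 3 fell (median 0.10). There Pdp1, the phosphatase that switches pyruvate dehydrogenase on, rose by 1.33, the kinase Pdk2 fell by 0.81 and the dehydrogenase subunit Pdhb rose by 0.61. Of 19 other genes of glycolysis, gluconeogenesis and glycogen 3 rose and 4 fell (median -0.15), including Gbe1, the glycogen branching enzyme (1.31), Txnip, which limits glucose uptake (-1.02), and the sugar transporter Slc2a8 (-0.62). Of 9 genes of the oxygen-sensing machinery 3 rose and 2 fell (median 0.12), with Siah2, a ubiquitin ligase that targets Egln proteins, up by 1.51, Arnt, the partner of HIF-1α, up by 0.68 and Cited2 down by 0.53. In the pyruvate entry list 16.7% were called higher and 25.0% lower. In the other glycolysis, gluconeogenesis and glycogen list these shares were 15.8% and 21.1%. With 12 and 19 genes tested, all of them were near the shares of all genes. After TPM rescaling, where 10.4% of all genes were called higher and 41.5% lower, the other HIF targets had 10 higher and 3 lower, and the other glycolysis, gluconeogenesis and glycogen genes 2 higher and 11 lower. The pentose phosphate list had 4 higher and 3 lower there, the pyruvate entry list 2 and 4, and the oxygen-sensing list 2 and 4. After quantile normalization the other HIF targets had 13 higher and 2 lower. The genes named here were called in the same direction under both.

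With IFN-β in PBS, where 24.6% of all genes were called higher and 25.0% lower, 10 of 22 other HIF targets fell and 2 rose (median -0.22), with Zfp395 at -2.63, Bhlhe40, a transcriptional repressor, at -1.10 and Ddit4 at -1.03. Cited2, which competes with HIF for its coactivators, rose by 2.62 in the oxygen-sensing list, where 3 of 9 rose and 2 fell (median 0.14), Egln2 changed by -0.71 and the coactivator Ep300 by 0.63. Pdk3, another pyruvate dehydrogenase kinase, rose by 2.43, with 22.6 FPKM in PBS at 3 h against 3.37 FPKM in PBS at 0 h. In its list, pyruvate entry, 2 of 12 rose and 1 fell (median 0.16), Pdk2 falling by 0.62 and Pdhb rising by 0.37. Of the other glycolysis, gluconeogenesis and glycogen genes 3 of 19 rose and 5 fell (median -0.11), led by Pgam2 (1.63), Slc2a6 (1.43) and Pgm2 (0.89). Rpe was the pentose phosphate gene that rose (1.06), and none of the 8 fell on the deposited scale (median -0.03). These counts depended on the scaling. After TPM rescaling, where 14.8% of all genes were called higher and 55.3% lower, 17 of the 22 other HIF targets and 6 of the 8 pentose phosphate genes were called lower, and after quantile normalization, where 20.4% were higher and 35.4% lower, 15 and 5 were. The other glycolysis, gluconeogenesis and glycogen genes called lower were 14 and 8 of 19 in the same order. Pdhb did not pass under either scaling and had the opposite sign under TPM rescaling (-0.08 and 0.15), and Ep300 did not pass after TPM rescaling (0.19).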

How the data were processed

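RNA sequencing libraries of mouse bone marrow derived macrophages were analysed from a table of FPKM deposited by the authors, with 54532 genes in 8 libraries. Per the submitters' processing notes, which list tools without their roles, HISAT2 2.0.5, featureCounts 1.5.0-p3, fastp, DESeq2 1.20.0 and CASAVA 1.8 were used with the builds GRCm38 and mm10. Strand, doses and the handling of reads that match several genes are not stated there or in the labels. The 11421 genes that reached an FPKM of 1 in 2 or more libraries were kept. Log2(FPKM + 1), with a pseudocount of 1, was fitted with limma 3.58.1 (R 4.3.3) as 4 group means over 8 libraries, with 4 residual and 2.83 prior degrees of freedom and an intensity trend. Tests are two-sided, and adjustment followed Benjamini and Hochberg, over every gene tested in each of 5 comparisons, with a threshold of 0.05. FPKM times gene length gave whole reads for 100% of values within 0.001 of a read, which sets the precision of low genes. Replicates of a group differed beyond sampling noise in every group (chi-square per degree of freedom 4.19 to 16.1). The members and lists were chosen with earlier results of these data known. Every member is accounted for, and from each other list up to 3 called genes with the largest changes are named for spermine at 0 h and for IFN-β in PBS. Alternatives covered the pseudocount, filters, scaling, the trend, the libraries fitted, a replicate block and leaving out each library. Promoter windows came from RefSeq (GRCm38.p6), shared transcript windows from GENCODE M21, and tables and figures from Python 3.11.15 with pandas 2.3.3 and matplotlib 3.10.9.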

Additional observations from a re-analysis of the deposited data

Results flagged for a closer look

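The IFN-β response of 5 genes differed between spermine and PBS by the test of the difference itself, and each value here is the response with spermine minus that in PBS on the log2(FPKM + 1) scale. Over all genes tested 13.6% were called in this comparison, so 5 of 34 is near the background. The call of Pfkfb3 held when any 1 library was left out, and those of Hk1, Ero1l, Pfkfb4 and Eno2 were each lost without at least 1 library. The difference was -1.19 for Pfkfb3 and -0.51 for Hk1, both of which rose in each condition and rose less with spermine. It was -0.63 for Ero1l, which fell with spermine and did not pass in PBS. Pfkfb4 stood at 0.63 and Eno2 at 0.50, both of which fell with IFN-β in PBS. Levels at 0 h already differed between spermine and PBS in all 5 genes, and the part of that in these differences was not tested.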

How the results depend on the processing

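The count of changed members stayed within 1.5 times in 4 of the 5 comparisons under every alternative that was run. For the difference of the IFN-β responses it was 5, against 3 with no filter, 8 after quantile normalization and 1 to 5 when single libraries were left out; the cause was not tested. Without single libraries the counts ran from 22 to 29 of a main 27 for spermine at 0 h, 20 to 25 of 25 for spermine at 3 h, 15 to 20 of 20 for IFN-β in PBS and 16 to 20 of 21 for IFN-β with spermine. One called change turned its sign, that of Gpi1 for spermine at 0 h, to -0.029 after TPM rescaling; the rescaling itself moves the median gene by -0.34 there. Other members were not called on the deposited scale and were called with the opposite sign after rescaling. For IFN-β in PBS these were Pgk1 (-0.39 by TPM, -0.62 by quantiles), Pkm (-0.40 and -0.71), Ldha (-0.40 and -0.70) and, by TPM, Ndrg1 (-0.38). For IFN-β with spermine they were Ldha (-0.32 by TPM, -0.56 by quantiles), Pfkfb4 (-0.26 by TPM) and Pkm (-0.26 by quantiles). Of 170 values of single members, TPM rescaling ended 14 calls, that of Gpi1 included, and added 26, quantile normalization ended 13 and added 17, and a pseudocount of 0.1 ended 1 and added 1. The replicate numbers come from the prefixes BM1 and BM2, which recur in the sample titles of all 4 groups. The labels do not say what these prefixes stand for. The correlation of same-numbered deviations was 0.23 to 0.37 among spermine 0 h, PBS 3 h and PBS 0 h and -0.13 to -0.06 between these and spermine 3 h, so the numbers were not taken as pairs. With the replicate block the counts were 30, 26, 22, 22 and 6 in the order of the report, with 1 call ended, that of the difference for Eno2, and 9 added. Those for spermine at 0 h were Hk3 (0.27, adjusted p = 0.0225), Pfkl (0.46, adjusted p = 0.0142) and Pfkm (-0.36, adjusted p = 0.0477), and Pfkm at 3 h (-0.37). Those for IFN-β were Pfkl (-0.33) and Pgam1 (-0.19) in PBS and Pkm (0.20) with spermine, and those for the difference were Pdk1 (-0.52) and Hilpda (0.78). The planned edgeR and DESeq2 fits of rebuilt reads were not run, because the deposited unit is FPKM. limma voom on the rebuilt reads, chosen after seeing the data, gave 30, 25, 20, 22 and 6 in that order. With 2 libraries a group, changes of genes under 1 FPKM, such as Adm and Ankrd37, rest on few reads.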
